A study of Homo sapiens with 3 samples.

Results

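The genes described here are 10 targets of the transcription factor NF-kB, among them the inflammatory cytokines of the set: NFKBIA, TNFAIP3, RELB, NFKB2, CXCL8, CXCL1, CXCL2, LIF, SOD2 and IER3. They were chosen by name, and every probe set that the platform annotation assigns to exactly 1 of these symbols was taken, whatever its level, which gave 17 of the 54613 probe sets on the array. The cells were HCT116, a human colorectal carcinoma line. The groups were UHRF1 shRNA, with 1 array for hairpin 2 and 1 array for hairpin 5, and Scr shRNA, the scrambled hairpin control, with 1 array. All 3 cultures were infected with lentivirus and kept under puromycin for 6 days, so infection and selection were shared by the control, and an uninfected culture was not analysed here. UHRF1 is the protein that brings the maintenance DNA methyltransferase to hemimethylated DNA, and it also binds the tail of histone H3. The comparison addresses which transcripts read differently from the control after its depletion.

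NF-kB is a family of dimeric transcription factors held in the cytoplasm by inhibitors such as the product of NFKBIA. Signals from cytokine receptors lead to loss of the inhibitor, the dimers enter the nucleus, and they bind short DNA sites of a common form called kappaB sites. Among the genes they switch on are their own inhibitors, which end the response, and secreted chemokines that draw neutrophils to a tissue. In the intestinal epithelium this pathway links infection and injury to inflammation.

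The promoters of 7 of the 10 genes, 12 windows in all, were found in the RefSeq promoter table of build GRCh38.p14, each window running from 250 bases before the annotated start to 50 bases after it. RELB, LIF and IER3 were not among them. The 10-base kappaB consensus, searched on both strands with overlapping matches counted and a site that matches on both strands counted on each, was present in 6 of the 12 windows, against 5.91% of all 35116 windows of the same length and 6.53% of the 22199 of protein-coding genes. These matches describe the letters only and not binding. The genes were chosen as NF-kB targets, and NFKB2 and SOD2 gave several windows each, so the shares are a description and not a test. The promoters of 1 feedback inhibitor and 3 chemokines are shown because 3 of them carry the same match, while CXCL8 holds the probe set furthest from the control. Capitals mark kappaB consensus matches, and all are written 5′ to 3′ on the strand of the gene. They lie at chr14:35404700-35404999 on the minus strand for NFKBIA, chr4:73869143-73869442 on the plus strand for CXCL1, chr4:74099146-74099445 on the minus strand for CXCL2 and chr4:73740319-73740618 on the plus strand for CXCL8.
NFKBIA: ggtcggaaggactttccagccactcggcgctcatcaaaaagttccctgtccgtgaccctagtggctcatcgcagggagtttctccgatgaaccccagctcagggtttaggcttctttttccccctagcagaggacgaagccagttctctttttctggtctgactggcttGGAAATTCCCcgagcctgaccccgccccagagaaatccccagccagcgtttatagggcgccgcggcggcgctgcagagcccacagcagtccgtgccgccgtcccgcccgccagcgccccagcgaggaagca
CXCL1: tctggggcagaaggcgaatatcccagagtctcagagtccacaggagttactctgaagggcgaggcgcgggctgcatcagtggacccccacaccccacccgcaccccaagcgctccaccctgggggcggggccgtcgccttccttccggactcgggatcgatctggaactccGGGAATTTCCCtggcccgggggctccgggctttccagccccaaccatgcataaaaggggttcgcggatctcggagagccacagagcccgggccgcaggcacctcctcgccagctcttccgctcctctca
CXCL2: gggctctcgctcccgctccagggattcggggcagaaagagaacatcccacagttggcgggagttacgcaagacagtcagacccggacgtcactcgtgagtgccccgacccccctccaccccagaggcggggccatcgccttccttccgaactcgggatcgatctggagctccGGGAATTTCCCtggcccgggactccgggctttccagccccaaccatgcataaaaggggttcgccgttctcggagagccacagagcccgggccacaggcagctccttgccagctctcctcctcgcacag
CXCL8: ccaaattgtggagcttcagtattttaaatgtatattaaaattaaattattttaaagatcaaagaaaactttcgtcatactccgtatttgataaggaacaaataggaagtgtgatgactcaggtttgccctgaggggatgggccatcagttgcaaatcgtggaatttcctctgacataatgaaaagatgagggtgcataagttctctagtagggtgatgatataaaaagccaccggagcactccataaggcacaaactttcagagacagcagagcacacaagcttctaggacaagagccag

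Read along the strand that matches, the kappaB match GGGAATTTCC is the same 10 letters in NFKBIA, CXCL1 and CXCL2. In CXCL1 and CXCL2 it overlaps a second match on the other strand, so that 11 bases are capitalised. The CXCL8 window held no match to this consensus, which says nothing about the factor there: the known NF-kB site of this promoter departs from the consensus. TATAAA lay on the gene strand of the CXCL8 window and only on the other strand of the NFKBIA window. Searched on both strands, TATAAA was present in 11.5% of all windows. TNFAIP3 had 2 kappaB matches, and the NFKB2 windows had 0, 4 and 2. The windows of SOD2 had 0 matches in all 4. The number of CpG dinucleotides, the bases at which methylation is maintained, was lowest in CXCL8, with 4, and 22 in each of NFKBIA, CXCL1 and CXCL2. It was 35 in TNFAIP3, from 20 to 28 in NFKB2 and from 24 to 40 in SOD2, beside a median of 21 over the windows of protein-coding genes and 14 over all windows.

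**Figure D1:**
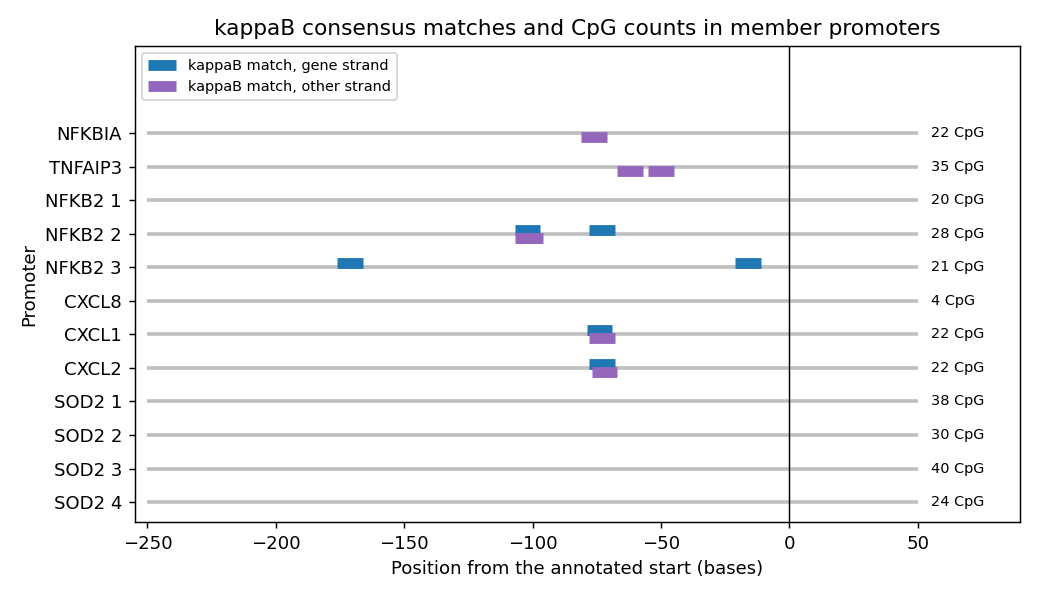
Position of kappaB consensus matches (coloured bars, by strand) in the 12 promoter windows of 7 member genes, in bases from the annotated start, with the number of CpG dinucleotides at the right. The matches lie upstream of the start, 6 of the 12 windows hold at least 1, and CXCL8 has 4 CpG.

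Values below are the deposited log2 expression values, on which a difference of 1 is 2-fold, and a difference is hairpin minus Scr shRNA. The array medians were 2.98 for hairpin 2, 3.04 for hairpin 5 and 3.002 for Scr shRNA. The knockdown was visible: UHRF1 (225655_at) read 6.20 with hairpin 2 and 6.67 with hairpin 5, against 8.54 with Scr shRNA, a mean difference of −2.11 ± 0.33 (SD, n = 2 hairpins). In limma it had an adjusted p of 1.00 over all probe sets, as no probe set of the table passed. The epithelial marker EPCAM read 10.13 and 9.93 with hairpins 2 and 5 and 10.23 with Scr shRNA, and the epithelial keratins KRT8, KRT18 and KRT19 read above 10 on every array. The intestinal markers VIL1 and LGALS4 were not high: VIL1 read 3.12, 3.11 and 3.13 in the same order, close to the array medians, and LGALS4 2.59, 2.45 and 2.73, below them. The highest of 12 leukocyte markers reached 4.28 on any array, and the linear levels of these markers summed to 89.9 with hairpin 2, 99.8 with hairpin 5 and 91.3 with Scr shRNA. The same sums over 12 fibroblast and endothelial markers were 168 with hairpin 2, 145 with hairpin 5 and 140 with Scr shRNA, and the highest member, COL1A1, read 6.39 with hairpin 2, 5.75 with hairpin 5 and 5.82 with Scr shRNA. Over 11 epithelial and intestinal markers the sums were 11793 with hairpin 2, 12115 with hairpin 5 and 10873 with Scr shRNA. Among them KRT20, a keratin of differentiated intestinal cells, read 5.62 with hairpin 2 and 2.64 with hairpin 5, against 2.77 with Scr shRNA. All of these markers were named after their values were seen, and the part of these markers in the results below was not tested.

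The NF-kB targets stayed under 2-fold from the control with either hairpin, and none passed the test. The 17 probe sets had median differences of −0.08 for hairpin 2 and −0.04 for hairpin 5, beside −0.01 and 0.01 over all probe sets. With hairpin 2 the differences ran between −0.66 and 0.27, and with hairpin 5 between −0.77 and 0.33, so 0 of 17 probe sets were 2-fold from the control on either array. LIF, CXCL8, CXCL2 and SOD2 each had a probe set that read lower than the control by a mean of 0.52 to 0.59, and NFKBIA and RELB read slightly higher with both hairpins.

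limma called 0 of the 17 probe sets at an adjusted p of 0.05, and 0% of all 54613, with a lowest adjusted p of 1.00. At an unadjusted p under 0.05 there were 0 members and 1595 probe sets, 2.92% of the table, fewer than the 2731 that chance alone gives on average. With an intensity trend or a robust prior limma also called 0 members and 0 probe sets at an adjusted p of 0.05. Both hairpins read higher than the control for 2 member probe sets and lower for 8, and the other 7 differed in direction between the hairpins. Over all probe sets 31.7% were higher with both and 30.8% lower with both. With both hairpins 2-fold higher stood 0.0586% of the table, and 2-fold lower 0.103%. Taken by itself, the hairpin 2 array had 0.558% of the table at least 2-fold higher and 0.222% lower, and the hairpin 5 array had 0.135% higher and 0.683% lower. These spreads rest on 2 arrays with different hairpins and 1 control, so effects of hairpin, culture and array cannot be told apart, and an exact permutation over the 3 possible splits could not go below p = 0.333.

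**Figure D2:**
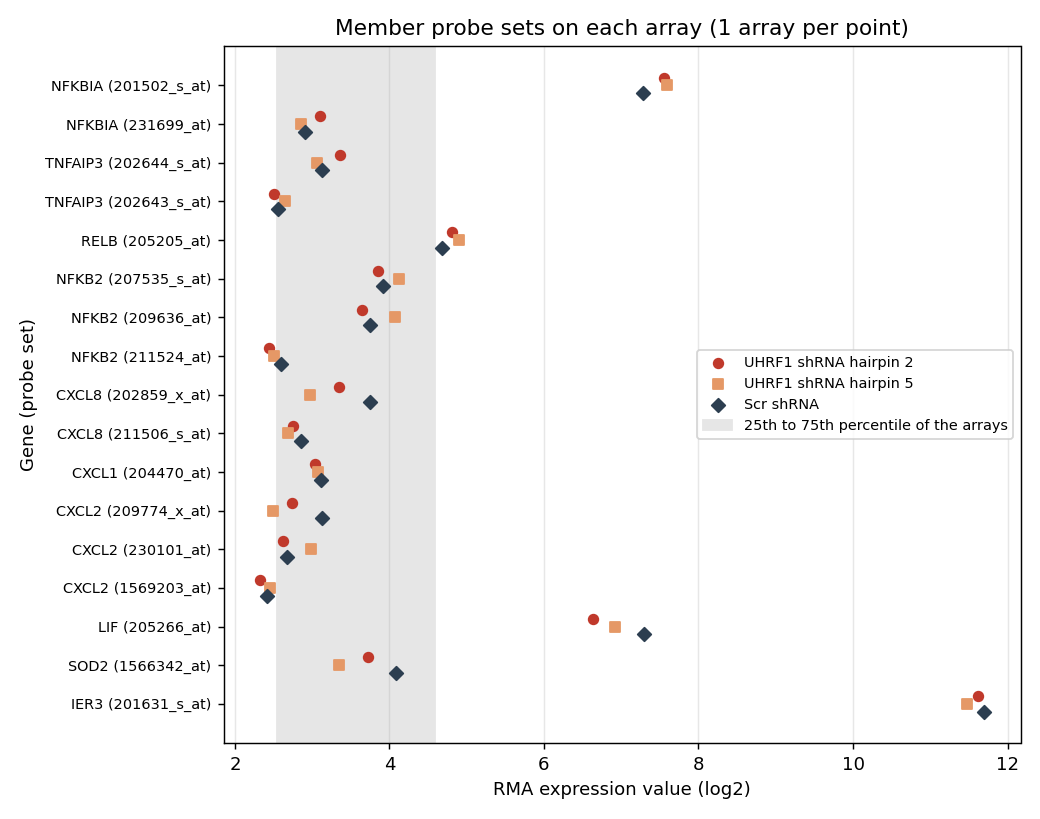
RMA expression (log2) of the 17 member probe sets on the hairpin 2, hairpin 5 and Scr shRNA arrays, 1 point per array, with the range between the 25th and 75th percentiles of the arrays shaded. IER3, NFKBIA (201502_s_at) and LIF lie far to the right of the shading, RELB just beyond it, and every other probe set lies within it or to its left.

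The feedback inhibitors of the pathway were level with the control or slightly above it. NFKBIA encodes IkB-alpha, which binds NF-kB dimers and holds them out of the nucleus. Its brighter probe set (201502_s_at) read 7.55 with hairpin 2 and 7.59 with hairpin 5, against 7.29 with Scr shRNA. Both hairpin arrays were above the control, and they differed from each other by −0.04 (hairpin 2 minus hairpin 5). Both differences use the same control array, so an SD over the hairpins leaves out the spread of the control. Averaged over the hairpins it differed by 0.29 ± 0.03 (SD, n = 2), with a limma 95% interval between −0.14 and 0.71. The dimmer NFKBIA probe set (231699_at) read 3.10 and 2.86 with hairpins 2 and 5, against 2.90 with Scr shRNA, so the hairpins lay on either side of the control, and both probe sets together averaged a difference of 0.18. TNFAIP3 encodes A20, a ubiquitin-editing enzyme that shuts off signalling to NF-kB. Its probe sets read 3.36 and 2.501 with hairpin 2, 3.06 and 2.65 with hairpin 5, and 3.12 and 2.55 with Scr shRNA. The brighter of them lay near the median of each array and the dimmer near the 25th percentile. The hairpins bracketed the control in both probe sets, and a transcript at background cannot be told apart from a low one.

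RELB and NFKB2 encode partners of the alternative NF-kB pathway: RELB is a DNA-binding subunit, and NFKB2 yields the precursor p100 that is cut to p52. RELB (205205_at) read 4.81 with hairpin 2 and 4.90 with hairpin 5, against 4.68 with Scr shRNA. Both hairpins were above the control, by a mean of 0.18 ± 0.07 (SD, n = 2 hairpins), and the 95% interval reached from −0.27 to 0.62. For NFKB2 the probe set with the highest mean (207535_s_at) read 3.85 with hairpin 2 and 4.12 with hairpin 5, against 3.92 with Scr shRNA. A second (209636_at) read 3.64 and 4.08 with hairpins 2 and 5, against 3.75 with Scr shRNA. In both the hairpin 2 array was below the control and the hairpin 5 array above it. The third NFKB2 probe set (211524_at) was below the 40th percentile of the table and differed by −0.15 and −0.08.

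The secreted chemokines were read near the bulk of the arrays in all 3 cultures. CXCL8, or interleukin-8, attracts neutrophils through CXCR1 and CXCR2. Its brighter probe set (202859_x_at) read 3.35 with hairpin 2 and 2.97 with hairpin 5, against 3.75 with Scr shRNA. Both hairpins were below the control, 1.32-fold with hairpin 2 and 1.71-fold with hairpin 5, and the mean difference of −0.59 ± 0.27 (SD, n = 2 hairpins) was the furthest from 0 among the 17. The other CXCL8 probe set (211506_s_at) read 2.75 and 2.68 with hairpins 2 and 5, against 2.86 with Scr shRNA, so its direction was the same and its size smaller. The mean over both probe sets was −0.36.

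CXCL1 and CXCL2 are close paralogs that act on the receptor CXCR2, and probes for one may bind transcripts of the other. CXCL1 (204470_at) read 3.04 with hairpin 2 and 3.07 with hairpin 5, against 3.11 with Scr shRNA. That spread is narrower than 0.1, and the 95% interval of the mean difference of −0.05 reached from −0.48 to 0.37. Of the 3 probe sets of CXCL2, 209774_x_at read 2.74 with hairpin 2 and 2.49 with hairpin 5, against 3.13 with Scr shRNA. Both hairpins were lower in it, while the other two, 230101_at and 1569203_at, had 1 hairpin on each side of the control, at −0.05 and 0.32 and at −0.08 and 0.04. The CXCL2 difference thus rested on 1 probe set, and the mean over all 3 was −0.13.

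The CXCL8 and CXCL2 probe sets that read lowest against the control both carry the suffix _x_at, which marks probes that may bind several transcripts. Among all 1426 dim _x_at probe sets, with a mean log2 value between 2.5 and 3.5, the median differences were −0.03 with hairpin 2 and 0.06 with hairpin 5. Of these, 8, or 0.561%, were at least 1.5-fold lower with hairpin 5, CXCL8 and CXCL2 among them. In the 22666 other probe sets of that level the share was 0.918%. This summary was added after the member values were seen and counts those members. Whether binding to several transcripts had a part in their values was not tested.

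LIF, a cytokine of the interleukin-6 family, was the 1 secreted member read far above the bulk of the arrays. It (205266_at) read 6.64 with hairpin 2 and 6.92 with hairpin 5, against 7.30 with Scr shRNA. Both hairpin arrays lay below the control, 1.58-fold with hairpin 2 and 1.30-fold with hairpin 5. Averaged over the hairpins it differed by −0.52 ± 0.20 (SD, n = 2), with a 95% interval between −1.08 and 0.04 and a limma adjusted p of 1.00. LIF was the only member probe set at least 1.5-fold lower with hairpin 2, where 1.42% of the table was, and 0 members were 1.5-fold higher, where 2.75% of the table was.

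SOD2 and IER3 are effector genes of the response. SOD2 is the manganese superoxide dismutase of mitochondria, and only 1 probe set (1566342_at) names it alone, since 4 others are annotated to SOD2 together with SOD2-OT1 and were left out by the rule. The single probe set read 3.73 with hairpin 2 and 3.35 with hairpin 5, against 4.09 with Scr shRNA. Both hairpins were below the control, by a mean of 0.55 on the log2 scale with an SD of 0.27 over 2 hairpins. With CXCL8 and CXCL2 it made up the 3 member probe sets at least 1.5-fold lower with hairpin 5, where 3.77% of the table was. For comparison, 1.61% of the table and 0 members were 1.5-fold higher with hairpin 5. IER3, an immediate early gene whose product modulates cell survival, was read far above the bulk of every array. Its probe set (201631_s_at) read 11.61 with hairpin 2 and 11.48 with hairpin 5, against 11.70 with Scr shRNA. Its mean difference of −0.15 ± 0.10 (SD, n = 2 hairpins) had a 95% interval from −0.61 to 0.31.

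The precision sets what these arrays can say. The 95% interval of the mean difference lay within 1 on either side of 0 for 13 of the 17 probe sets, beside 48008 of all 54613. For the dim probe sets among the 13, those below the 40th percentile of the table included, signal near background limits what the interval says of the transcript. It reached past −1 in the other 4, with lower bounds of −1.08 for LIF, −1.21 for SOD2, −1.24 for CXCL8 (202859_x_at) and −1.06 for CXCL2 (209774_x_at). A difference of 2-fold lower was therefore not outside the interval for these 4 probe sets. It was outside for the other probe set of CXCL8 (211506_s_at), with a lower bound of −0.57. The same held for the other CXCL2 probe sets, with lower bounds of −0.51 (230101_at) and −0.48 (1569203_at).

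**Figure D3:**
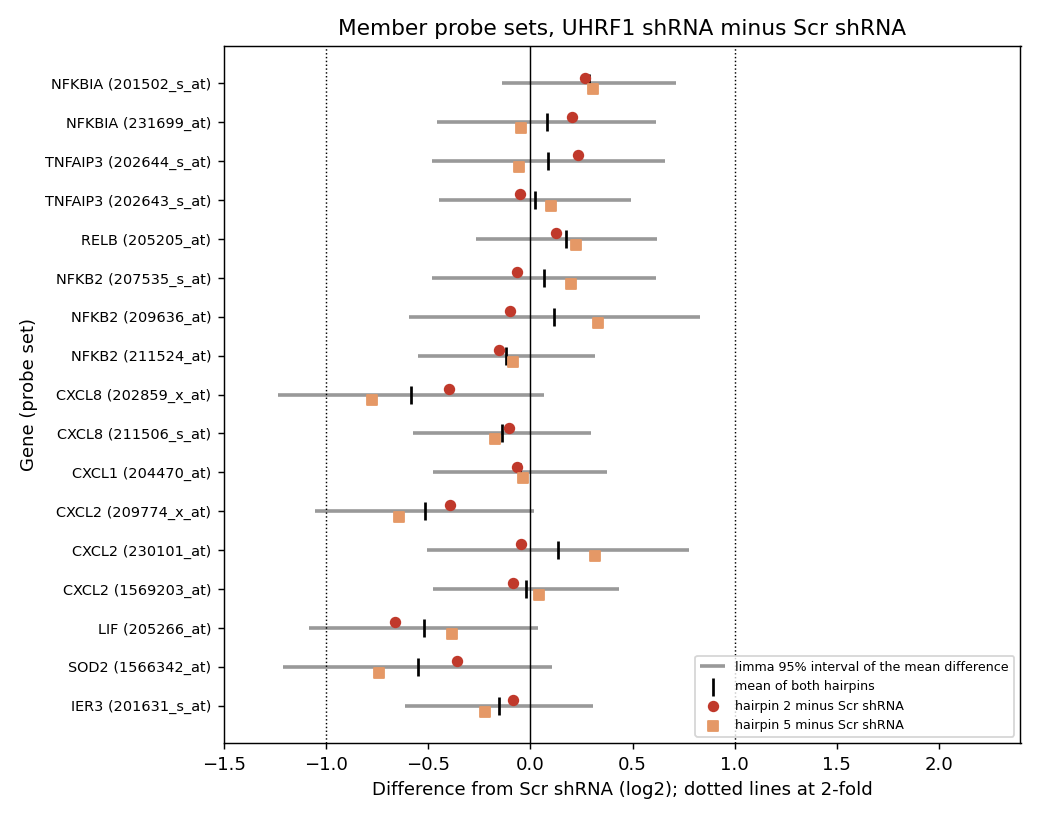
Differences from Scr shRNA (log2) for the 17 member probe sets with hairpin 2 (circles) and hairpin 5 (squares), with the mean of both (black tick) and its limma 95% interval (grey bar). Every point lies inside the dotted 2-fold lines, every interval includes 0, and 4 intervals reach below −1.

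The rest of the pathway was described through lists, with the brightest probe set standing for each gene, and only where its mean over the arrays reached the 40th percentile of the table (log2 2.79). Of 14947 such genes, 29.8% were higher and 31.2% lower with both. Among the members themselves, 9 of 10 reached this level, with 2 higher and 5 lower. limma called 0 genes in any of the lists. Its unadjusted p was under 0.05 for 2 of 33 upstream genes and 5 of 38 other targets. In the list of cytokine receptors and shared signalling genes it was so for 2 of 7, beside 4.96% of all genes at this level.

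NF-kB subunits and inhibitors read slightly higher more often than lower. Of 11 measured, 3 of them members, 7 were higher with both hairpins and 1 was lower, with medians of 0.13 with hairpin 2 and 0.20 with hairpin 5, beside 0.01 and −0.02 over all such genes. NFKBIB, which encodes IkB-beta, differed by 0.49 and 0.24 with hairpins 2 and 5, and NFKBIE, which encodes IkB-epsilon, by 0.27 and 0.23. The mean over the 3 probe sets of NFKBIB was smaller, at 0.11. The gene lower with both was NKRF, a repressor of NF-kB target genes, at −0.19 and −0.41. RELA, the main activating subunit, differed by 0.11 and −0.15, and NFKB1, its usual partner, by 0.10 and 0.38. NKRF, RELA and NFKB1 were named after their values were seen.

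Receptors, adaptors and kinases upstream of NF-kB were split. Of 33, 11 were higher and 13 lower with both hairpins, with medians of 0.02 and −0.09. MYD88, the adaptor of Toll-like and interleukin-1 receptors, read 7.66 with hairpin 2 and 6.98 with hairpin 5, against 6.41 with Scr shRNA, and was at least 2-fold higher with hairpin 2. RBCK1, a subunit of the linear ubiquitin ligase that relays signals to NF-kB, read 8.73 with hairpin 2 and 8.14 with hairpin 5, against 9.38 with Scr shRNA, a mean difference of −0.94 that was −0.54 over its 3 probe sets. The tumour necrosis factor receptor gene TNFRSF1A read 7.47 and 7.39 with hairpins 2 and 5, against 7.97 with Scr shRNA. These 3 genes were named partly for having both hairpins on the same side of the control.

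Of 38 other NF-kB target genes at this level, 14 were higher and 10 lower with both hairpins, with medians of 0.09 and 0.02 and a median mean difference of −0.02, and 16 more on the array were below the level. PLAU, the urokinase protease, was the 1 gene at least 2-fold lower with both hairpins, at 6.999 and 7.50 with hairpins 2 and 5 against 8.71 with Scr shRNA. The mean difference of this brightest probe set was −1.465, while the 2 probe sets of PLAU averaged −1.07. LAMB3, a laminin chain of the basement membrane, differed by −0.67 and −1.32. CFLAR, an inhibitor of caspase-8, differed by −0.78 and −0.46, while its 14 probe sets averaged −0.12.

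The next list held receptors of the member cytokines together with JAK1, STAT3 and SOCS3, which are not receptors. Of its 9 genes, 7 reached the level, with 2 higher and 3 lower with both hairpins. The medians were −0.26 with hairpin 2, the value of SOCS3, and −0.12 with hairpin 5, the value of LIFR. The median of the genes' mean differences was 0.09, again the value of SOCS3. Among the receptors, LIFR differed by 0.34 and −0.12 with hairpins 2 and 5, and OSMR by 0.465 and 0.21. LIFR and OSMR were named after their values were seen. JAK1, the kinase that serves the LIF receptor complex, differed by −0.54 and −0.53 with hairpins 2 and 5, and its 5 probe sets averaged −0.23. IL6ST, which encodes the shared signalling chain gp130, differed by −0.59 and −0.41, and its 7 probe sets averaged −0.11. CXCR1, a receptor of CXCL8, differed by −0.28 and −0.37 at a level near the array medians.

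Interferon-stimulated genes were much higher on the hairpin 2 array. Of 10 measured, 9 were at least 2-fold higher than Scr shRNA with hairpin 2 and 2 with hairpin 5, with medians of 4.34 and 0.28. IFIT1, at 6.79 and 2.19 above the control with hairpins 2 and 5, and IFITM1, at 6.31 and 1.51, were at least 2-fold higher with both. BST2, which tethers budding virus, read 9.31 with hairpin 2 and 5.45 with hairpin 5, against 4.81 with Scr shRNA. Whether the interferon-stimulated genes and the NF-kB targets are linked in these cells was not tested.

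**Figure D4:**
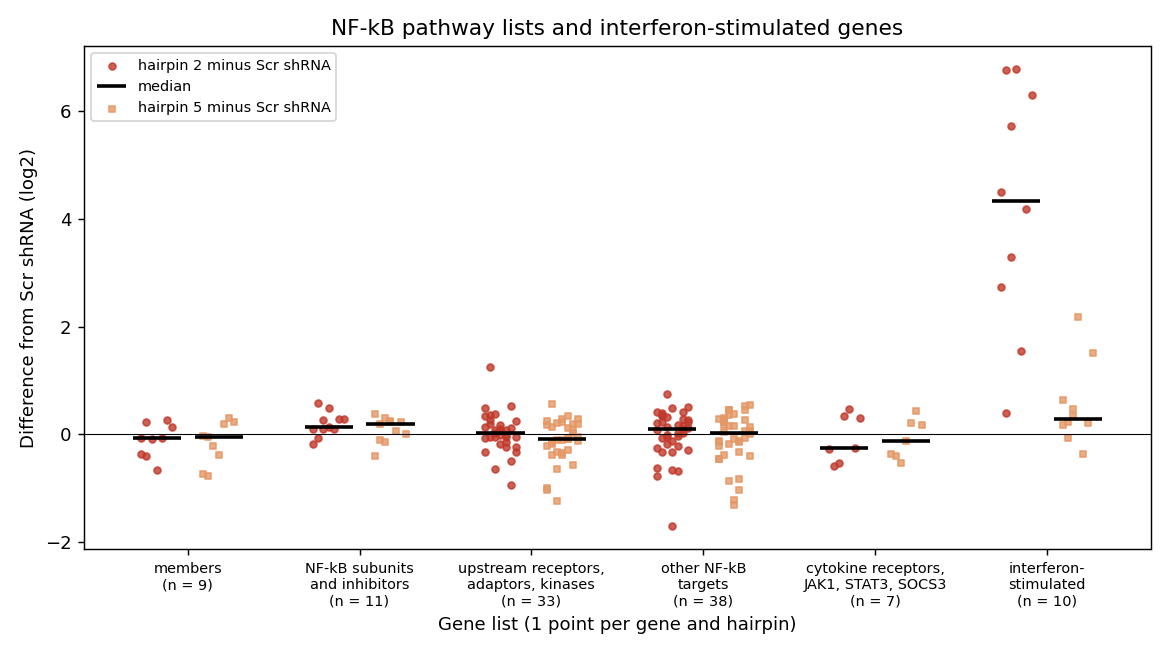
Differences from Scr shRNA (log2) of genes at or above the 40th percentile in 6 lists, with hairpin 2 (circles, left) and hairpin 5 (squares, right), 1 point per gene, and black bars at the medians. The medians of the members and the other NF-kB lists lie between −0.26 and 0.20. The lowest is that of the cytokine receptors with JAK1, STAT3 and SOCS3 (hairpin 2), and the highest that of the subunits and inhibitors (hairpin 5). Interferon-stimulated genes have a median of 4.34 with hairpin 2 and 0.28 with hairpin 5.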

How the data were processed

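Total RNA of the 3 cultures was labelled with biotin and measured on single-colour Affymetrix arrays, per the labels' protocols. The authors deposited log2 values made by RMA in Affymetrix Expression Console, as the submitters' processing notes name both; versions and settings are not given in the sources used here. That the base is 2 was judged from their range, the centring is not stated, and there are no detection calls.

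Of 54613 probe sets, 41091 had 1 gene in the platform annotation, 1801 several and 11721 none. Gene identifiers of 41037 were matched in a RefSeq table (GRCh38.p14), which changed 0 symbols. Differences were fitted with limma 3.58.1 in R 4.3.3 (lmFit, then eBayes) on all probe sets with no filter, two-sided, with Benjamini-Hochberg adjustment over the whole table. The fit took the 2 hairpins as replicates against 1 control, with 1 residual degree of freedom moderated to 3.63, and assumes that the control varies like the hairpin arrays. Nothing in the labels says that more than 1 culture stood behind an array.

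Members, lists and motifs were chosen with earlier results of these data known. From each pathway list and the interferon-stimulated list, but not from the cell type markers, the text names genes at least 2-fold from control with both hairpins, and the 3 genes whose lesser difference of the pair, in the same direction, was greatest. Members and UHRF1 are always named. A summary over dim _x_at probe sets was added after values were seen. Alternatives were other scalings between arrays, filters, ways to combine probe sets, variance priors, thresholds and leaving out a hairpin.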

Additional observations from a re-analysis of the deposited data

How the results depend on the processing

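At a 1.5-fold instead of a 2-fold threshold, 4 rather than 0 member probe sets passed with 1 hairpin, those of LIF, CXCL8, CXCL2 and SOD2. Over the table, 1.42% was at least 1.5-fold lower and 2.75% higher with hairpin 2. With hairpin 5 the shares were 3.77% lower and 1.61% higher, and the share that passed with either hairpin was not counted. The count of members called by limma was 0 under median centring, quantile normalization, cyclic loess, the 40th percentile filter, the brightest or the mean probe set of each gene, no _x_at probe sets, both variance priors and an adjusted p of 0.1. The count over the whole table was 0 under the same settings at an adjusted p of 0.05. The unadjusted limma p of 2 members passed 0.05 in some alternatives, at a lowest of 0.0412 for LIF and 0.0257 for CXCL2 (209774_x_at), with adjusted p of at least 0.999. No member probe set changed the sign of its mean difference under another scaling or filter. The median difference over the members was −0.02 and lay so near 0 that its sign turned, to 0.07 over the 11 probe sets above the filter and to 0.02 without _x_at probe sets. It was −0.10 for the brightest and −0.09 for the mean probe set of each gene. Leaving out a hairpin gave medians of −0.08 and −0.04, as values with no test, since no degree of freedom remained. CXCL8 averaged −0.36 over its probe sets and CXCL2 −0.13. Signal near background limits the 6 of 17 probe sets below the 40th percentile, which are all 3 of CXCL2 and the dimmest of TNFAIP3, CXCL8 and NFKB2. The cut is not a detection call, and dim probe sets above it may be limited too. Of 12 leukocyte markers, 6 reached it and 6 did not, and CD79A read 3.75 with hairpin 2, 4.28 with hairpin 5 and 3.93 with Scr shRNA. No CXCL8 or SOD2 probe set read above 4.28 on any array, and whether they stood clear of background was not tested. No paired analysis was possible because there was 1 control array.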
